A study of Mus musculus with 6 samples.

Results

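The genes described here encode the sensors that detect foreign or displaced RNA and DNA inside the cell, the adaptors they signal through and the kinases that carry the signal on. They were chosen by name, as the loci of the raw count table whose gene name, split at commas, is *Ddx58*, *Ifih1*, *Dhx58*, *Tlr3*, *Mb21d1*, *Zbp1*, *Mavs*, *Tmem173*, *Tbk1* or *Ikbke*. Each of the 10 names matched 1 of the 51499 loci in the table. By role, 4 are RNA sensors, 2 are sensors of DNA or of nucleic acids in the Z conformation, 2 are adaptors and 2 are kinases. The table holds older symbols for a pair of them: *Mb21d1* is the gene of cGAS, and *Tmem173* that of STING. TLR3 is the exception to a cytosolic group, because it meets its ligand in endosomes.

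The libraries were made from wild-type (WT) mouse embryonic fibroblasts (MEFs), which are connective tissue cells grown from embryos and here carried as an immortalized line. Cultures received either a scrambled control siRNA (Scr siRNA) or siRNA against *Yme1l* (Yme1l siRNA) and were harvested 72 h later, with 3 independent cultures in each group. *Yme1l1* encodes YME1L, a protease of the mitochondrial inner membrane, and the comparison asks which transcripts change when the protease is acutely depleted. Poly(A)-selected RNA was sequenced as stranded libraries. Both groups were transfected with RNA, and no untransfected cultures were analysed here. The sample labels describe the cells as 3T3 immortalized, whereas the methods describe immortalization with SV40 large T antigen, derivation from animals with loxP sites in *Yme1l* and the expansion of single clones after exposure to Cre recombinase, so the WT cells may stem from 1 clone. Whether the knockdown used a single siRNA or a mixture is not given in the sources used here.

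RIG-I (*Ddx58*), MDA5 (*Ifih1*) and LGP2 (*Dhx58*) are the RIG-I-like receptors, helicases of the cytosol that bind double-stranded RNA. RIG-I prefers short ends with a 5′ triphosphate and MDA5 long duplexes, and both pass the signal through their caspase recruitment domains to MAVS, an adaptor on the mitochondrial outer membrane. cGAS is an enzyme that makes the second messenger cGAMP when it binds DNA, and cGAMP activates STING on the endoplasmic reticulum. Both adaptors recruit TBK1 and IKKε (*Ikbke*), which phosphorylate the transcription factors that switch on the interferon genes. Several sensors are themselves encoded by interferon-stimulated genes, so that their transcripts commonly rise in cells that have been exposed to interferon.

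The letters upstream of some of these genes are shown first, because promoters of interferon-stimulated genes often carry an interferon-stimulated response element (ISRE). RefSeq promoter windows on GRCm38.p6, each with 250 bases before and 50 bases after the start site, matched 7 of the 10 members. No window was available for *Dhx58*, *Zbp1* and *Tmem173*, which were not searched. The patterns searched on both strands of these and of all 32851 RefSeq windows were the ISRE core, which is a pair of GAAA with any 2 bases between them (in 3.44% of all windows), the gamma-activated sequence TTCNNNGAA (8.3%), an NF-kB type site of GGG, any 2 bases and TTTCC (1.63%), the TATA box TATAAA (13.6%) and a repeat with a shorter gap, GAAANGAAA (3.17%), the last of which was added after the letters had been seen. The patterns can overlap in a window. The windows of RIG-I, MDA5 and TLR3 are printed because they hold a match, and those of cGAS and MAVS because the first rose without a match and the second did not pass the test. Each reads 5′ to 3′ on the strand of the gene, and capitals mark the matches.
Ddx58: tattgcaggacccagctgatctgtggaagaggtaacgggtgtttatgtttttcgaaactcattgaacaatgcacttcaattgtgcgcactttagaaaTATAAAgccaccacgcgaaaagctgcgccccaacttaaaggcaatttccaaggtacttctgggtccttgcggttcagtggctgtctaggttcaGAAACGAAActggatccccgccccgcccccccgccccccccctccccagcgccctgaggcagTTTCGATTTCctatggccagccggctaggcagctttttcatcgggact
Ifih1: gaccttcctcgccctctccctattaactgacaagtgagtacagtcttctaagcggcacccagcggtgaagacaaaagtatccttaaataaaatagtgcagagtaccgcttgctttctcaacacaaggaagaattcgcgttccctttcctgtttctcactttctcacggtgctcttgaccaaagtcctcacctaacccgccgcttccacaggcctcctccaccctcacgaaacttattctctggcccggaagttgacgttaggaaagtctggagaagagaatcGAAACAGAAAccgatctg
Tlr3: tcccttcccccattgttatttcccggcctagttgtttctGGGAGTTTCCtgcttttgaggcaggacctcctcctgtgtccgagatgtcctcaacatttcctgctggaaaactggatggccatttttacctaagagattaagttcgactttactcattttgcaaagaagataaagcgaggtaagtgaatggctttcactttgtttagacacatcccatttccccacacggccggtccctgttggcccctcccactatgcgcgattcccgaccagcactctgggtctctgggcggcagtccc
Mb21d1: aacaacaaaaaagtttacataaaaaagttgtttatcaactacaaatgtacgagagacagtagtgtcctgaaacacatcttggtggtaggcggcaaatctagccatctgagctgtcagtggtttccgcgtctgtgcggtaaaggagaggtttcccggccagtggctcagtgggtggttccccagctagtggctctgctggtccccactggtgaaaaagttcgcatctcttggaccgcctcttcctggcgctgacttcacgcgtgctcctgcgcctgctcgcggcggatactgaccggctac
Mavs: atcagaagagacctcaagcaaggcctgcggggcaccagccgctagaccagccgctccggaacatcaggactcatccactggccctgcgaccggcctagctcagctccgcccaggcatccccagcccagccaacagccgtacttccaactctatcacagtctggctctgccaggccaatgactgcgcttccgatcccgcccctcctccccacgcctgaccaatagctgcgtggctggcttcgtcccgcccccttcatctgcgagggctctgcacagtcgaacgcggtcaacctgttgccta

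The *Ddx58* window (chr4:40239776-40240075, minus strand) holds an ISRE core on its reverse strand that begins 2 bases after the start site. It also holds the shorter-gap repeat 60 bases before the start site and the letters TATAAA 153 bases before it. In the *Ifih1* window (chr2:62646206-62646505, minus strand) an ISRE core begins 32 bases after the start site. The *Tlr3* window (chr8:45410331-45410630, minus strand) has the NF-kB type site, 211 bases before the start site. None of these patterns is in the windows of *Mb21d1* (chr9:78443188-78443487, minus strand) or *Mavs* (chr2:131233813-131234112, plus strand), nor in those of *Tbk1* and *Ikbke*. The ISRE core occurs in 2 of the 7 windows. This count leaves out *Dhx58* and *Zbp1*, the sensors with the largest log2 fold changes (2.46 and 2.14), which had no window. A match is a string of letters and not evidence of a bound factor, and a window without one says nothing about letters elsewhere.

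The libraries held between 37260605 and 45205207 counts, 14499 loci passed the filter on low counts, and levels are given as CPM, the counts scaled to the TMM-normalized library size. Errors are SD with n = 3 unless a standard error (SE) is named, and adjusted p-values come from edgeR's quasi-likelihood test over all 14499 loci. *Yme1l1* itself stood at 170, 171 and 171 CPM in the Scr siRNA cultures and at 31.6, 23.4 and 45 CPM in the Yme1l siRNA cultures, so the targeted transcript was lower in every culture of its group and highest among these in replicate 3. The response was broad, with 58.0% of the loci called changed at an adjusted p under 0.05, 28.4% higher and 29.6% lower, each as a share of all loci tested. Of 11 tested fibroblast markers, 10 were lower, with a summed level of 35200 to 42500 CPM in Scr siRNA and 19000 to 23500 CPM in Yme1l siRNA cultures. The summed level of 12 macrophage and myeloid markers was 163 to 180 and 243 to 256 CPM, with *Csf1r* the largest. *Adgre1*, *C1qa*, *Tyrobp* and *Cx3cr1* were at 0 in all 6 libraries, and of 3 tested markers 1 was higher. The markers of dendritic cells, lymphocytes and epithelial cells each summed to no more than 1.08 CPM in any library, and those of endothelial cells to no more than 7.85 CPM. Of 3 tested endothelial markers 2 were higher, and of 2 tested dendritic markers 1 was higher and 1 lower. The part of these shifts in the results on the sensors was not tested.

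All 10 members were tested, and 7 of them (70.0%) rose after *Yme1l* knockdown, against 28.4% of all loci. They comprised all 4 RNA sensors, both sensors of DNA or Z-form nucleic acid and 1 of the kinases, *Tbk1*. Neither adaptor passed the test, nor did *Ikbke*. No member fell by edgeR, DESeq2 or limma-voom, and at an unadjusted p under 0.05 in edgeR 1 was lower (*Ikbke*). Of the members, 6 rose by at least 2-fold, against 8.18% of all loci. The groups did not overlap at 8 members, 7 of them higher and 1 lower, whereas 65.4% of all loci had groups that did not overlap, 31.9% higher and 33.6% lower. The median log2 fold change was 1.37 over the members and 0.01 over all loci tested. In bulk RNA, a change in the number of cells that express a gene and a change in the RNA of each cell cannot be told apart.

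**Figure D1:**
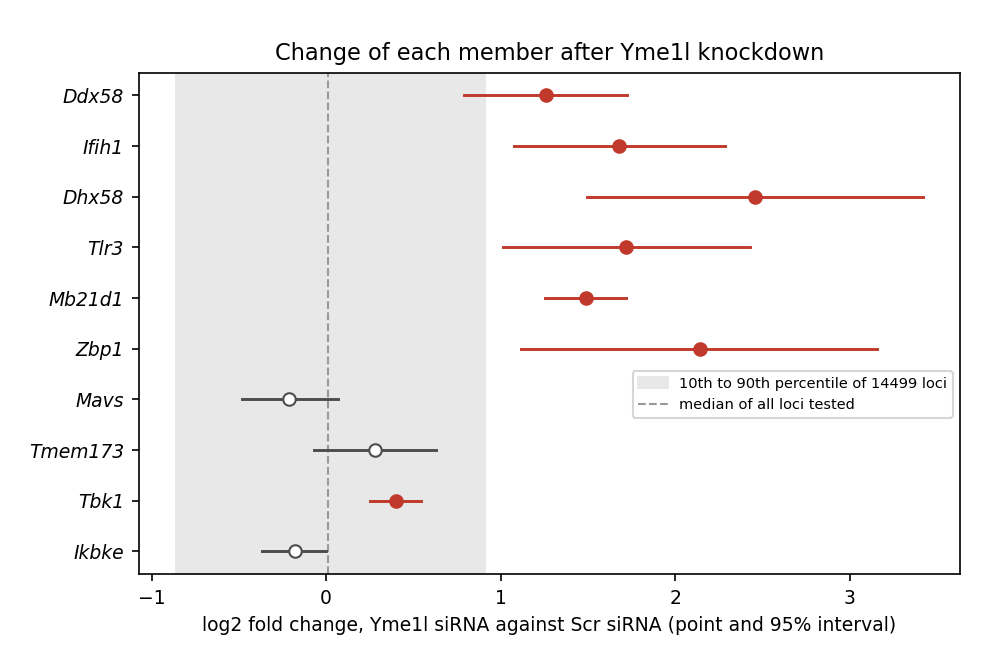
Log2 fold change of each member (x axis, Yme1l siRNA against Scr siRNA, 3 cultures each) with its 95% interval from edgeR; filled red points passed an adjusted p of 0.05 and open points did not, the grey band spans the 10th to the 90th percentile of 14499 loci (-0.86 to 0.91) and the dashed line is their median (0.01). The 6 sensors lie to the right of the band, between 1.26 and 2.46, and the adaptors and kinases lie inside it.

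Among the RNA sensors, *Ddx58* (XLOC_030357, chr4:40203773-40239828, minus strand, 18 exon blocks) was the most abundant in control cells. It was counted at 122, 95.1 and 76.2 CPM in the Scr siRNA cultures and at 269, 260 and 173 CPM in the Yme1l siRNA cultures. The lowest knockdown culture, replicate 3, thus stood above the highest control culture, replicate 1. From a mean of 97.7 ± 23.0 to one of 234 ± 52.9 CPM, RIG-I transcripts rose 2.39-fold (95% interval 1.73 to 3.30, log2 fold change 1.26, SE 0.20, adjusted p = 0.000908 from edgeR), and 5.96% of the loci tested had a larger log2 fold change.

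*Ifih1*, which encodes MDA5 (XLOC_024664, chr2:62595798-62646255, minus strand, 17 exon blocks), was lower at baseline and rose more. Its levels were 36.7, 32.3 and 22.5 CPM with Scr siRNA and 117, 116 and 60.8 CPM with Yme1l siRNA. Replicates 1 and 2 of the knockdown were nearly equal, and replicate 3 stood well below them but above all control cultures. The mean went from 30.5 ± 7.31 to 98 ± 32.2 CPM, a 3.21-fold rise (2.11 to 4.87, log2 fold change 1.68, SE 0.26, adjusted p = 0.000766 from edgeR).

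The member that changed most was *Dhx58*, the gene of LGP2, which lacks the caspase recruitment domains of its relatives and is known to modulate their signalling (XLOC_008450, chr11:100694884-100704271, minus strand, 13 exon blocks). Control cultures had 29.8, 21.3 and 11.5 CPM, and knockdown cultures had 132, 156 and 56.2 CPM. Both groups were spread widely, and in both the lowest culture was replicate 3. The rise was 5.49-fold (2.82 to 10.7), from 20.9 ± 9.17 to 115 ± 52.2 CPM (log2 fold change 2.46, SE 0.42, adjusted p = 0.00123 from edgeR), and 1.48% of the loci tested rose further. An antisense gene, *Dhx58os*, overlaps 141 exon bases of *Dhx58* (4.31% of its exon length), and whether the authors' counting used the strand is not given in the sources used here.

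*Tlr3* (XLOC_043845, chr8:45395665-45411080, minus strand, 8 exon blocks), the endosomal receptor for double-stranded RNA, had the lowest level of all members in control cells, with 211 to 331 counts per Scr siRNA library. Its levels were 7.65, 5.85 and 7.09 CPM with Scr siRNA and 25.3, 30.9 and 11.8 CPM with Yme1l siRNA. The control cultures were spread 1.31-fold, and the knockdown cultures were apart from them and spread 2.62-fold among themselves. *Tlr3* rose 3.30-fold (2.02 to 5.39), from 6.86 ± 0.92 to 22.7 ± 9.82 CPM (log2 fold change 1.72, SE 0.31, adjusted p = 0.00159 from edgeR). The gene *Gm45542* overlaps 7.32% of its exon length on the other strand.

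Of the sensors of DNA and Z-form nucleic acid, *Mb21d1* (XLOC_046749, chr9:78430526-78443237, minus strand, 5 exon blocks) gave the most even rise. cGAS transcripts were at 17.8, 19.2 and 20.9 CPM in control cultures and at 56.2, 58.8 and 47.4 CPM after knockdown. Within either group the highest and the lowest culture differed by at most 1.24-fold. The change was 2.80-fold (2.39 to 3.29), from 19.3 ± 1.51 to 54.1 ± 6.00 CPM, with the smallest SE among the sensors (log2 fold change 1.49, SE 0.10, adjusted p = 1.46e-05 from edgeR). On the other strand *Gm8093* covers 4.87% of its exon length, and 4.88% of its 50-base words also occur in the transcripts of other genes.

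*Zbp1* (XLOC_025830, chr2:173206612-173218923, minus strand, 8 exon blocks) encodes a protein that binds Z-form RNA and DNA and can start necroptosis, a form of cell death. Its levels were 19.8, 17.1 and 8.08 CPM with Scr siRNA, and 72.9, 96.1 and 28.8 CPM with Yme1l siRNA. No other member was spread as widely after knockdown, where replicate 2 exceeded replicate 3 by 3.34-fold, yet the groups did not overlap. The mean rose 4.4-fold (2.17 to 8.92), from 15 ± 6.14 to 65.9 ± 34.2 CPM (log2 fold change 2.14, SE 0.45, adjusted p = 0.00351 from edgeR).

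MAVS and STING serve the RIG-I-like receptors and cGAS, respectively, and neither adaptor gene passed the test. *Mavs* (XLOC_023621, chr2:131234063-131248025, plus strand, 9 exon blocks) stood at 34.6, 33.1 and 42.5 CPM in control cultures and at 31.6, 28.2 and 35.7 CPM after knockdown. The groups overlapped, since knockdown replicate 3 lay above control replicates 1 and 2. The fold change was 0.866, with an interval of 0.717 to 1.05 that holds 1 and leaves out a rise of the size seen at any of the sensors (log2 fold change -0.21, SE 0.12, adjusted p = 0.166 from edgeR).

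For *Tmem173*, on chromosome 18 (XLOC_020971, chr18:35733679-35740554, minus strand, 7 exon blocks), control cultures had 47.7, 48.9 and 53.3 CPM and knockdown cultures 60.1, 75.4 and 46.4 CPM. Knockdown replicates 1 and 2 were above all controls and replicate 3 was below them all. The fold change of STING transcripts was 1.21 (0.952 to 1.55, log2 fold change 0.28, SE 0.15, adjusted p = 0.149 from edgeR), which did not pass the test. The estimate moved in either direction with the library left out. Without Yme1l siRNA replicate 3 the log2 fold change was 0.44 (adjusted p = 0.00655 from edgeR), and without Yme1l siRNA replicate 2 it was 0.10 (adjusted p = 0.494).

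Of the kinases, *Tbk1* passed the test. This gene (XLOC_005739, chr10:121546455-121586787, minus strand, 22 exon blocks) was counted at 48.5, 49.6 and 50.7 CPM in control and at 65.2, 69.0 and 62.0 CPM in knockdown cultures. Both sets were narrow and did not overlap. This rise was small, at 1.32-fold (1.19 to 1.46), from 49.6 ± 1.13 to 65.4 ± 3.47 CPM (log2 fold change 0.40, SE 0.07, adjusted p = 0.00102 from edgeR), and 25.8% of all loci tested had a larger log2 fold change.

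Its relative *Ikbke* (XLOC_002683, chr1:131254343-131279606, minus strand, 20 exon blocks) had 22.4, 22.2 and 23.4 CPM in control cultures and 18.8, 21.3 and 19.8 CPM in knockdown cultures. Every knockdown culture was thus below every control culture, by a small margin. The fold change of 0.880 (0.776 to 0.999) did not pass the test (log2 fold change -0.18, SE 0.08, adjusted p = 0.0775 from edgeR), although without Yme1l siRNA replicate 2 it did (log2 fold change -0.23, adjusted p = 0.0442). *Gm28914* and *Gm28913* overlap 2.48% of its exon length on the other strand.

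Levels of different genes were compared as CPM per kb of exon, the union of the exons in GENCODE M21. In Scr siRNA cultures the adaptor *Tmem173* was the most abundant member, at 18.2 ± 1.07 CPM per kb, above *Ddx58* in every library. *Ddx58* (13.9 ± 3.26), *Tbk1* (12.7 ± 0.289) and *Mavs* (11 ± 1.51) followed, and neighbours among these overlapped. After a gap came *Dhx58* (6.39 ± 2.80), *Mb21d1* (4.68 ± 0.367), *Zbp1* (4.25 ± 1.74) and *Ifih1* (3.74 ± 0.896 CPM per kb), again with neighbours that overlapped. *Ikbke* (2.51 ± 0.0745) and *Tlr3* (1.32 ± 0.177 CPM per kb) closed the order, each apart from its neighbours. By this measure control cells held more transcript per kb of both adaptors and of *Tbk1* than of 5 of the 6 sensors, RIG-I being the sensor at their level.

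After knockdown, by the same measure, a pair of sensors came first. *Dhx58* (35.1 ± 16 CPM per kb) and *Ddx58* (33.2 ± 7.50) came before *Tmem173* (22.1 ± 5.29), *Zbp1* (18.7 ± 9.69) and *Tbk1* (16.7 ± 0.888), and each neighbour overlapped the next. *Mb21d1* (13.1 ± 1.45) now stood above *Mavs* (9.51 ± 1.13) in every knockdown culture, and *Ifih1* (12 ± 3.94 CPM per kb) overlapped *Mavs*. *Mavs* moved from position 4 to position 8. *Tlr3* (4.36 ± 1.89) and *Ikbke* (2.21 ± 0.141 CPM per kb) remained last, in reversed order and overlapping. By change, the order was *Dhx58*, *Zbp1*, *Tlr3*, *Ifih1*, *Mb21d1*, *Ddx58*, *Tbk1*, *Tmem173*, *Ikbke* and *Mavs*, which places every sensor before every kinase and adaptor. The intervals of the 6 sensors overlap one another, from 1.73 at the lower end of *Ddx58* to 10.7 at the upper end of *Dhx58* (fold change).

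The positions in both orders depend on how length enters. With the authors' FPKM, a level scaled for length and depth that their program estimated for each group from pooled cultures, *Ddx58* (27.9) preceded *Tmem173* (22.8), and *Zbp1* (14.7) stood above *Mavs* (13.1) and *Dhx58* (10.3 FPKM). With the length of the longest transcript, *Ddx58* was likewise first. In control cells *Tlr3* was last under all 3 measures, and *Tbk1* was at position 3. After knockdown, the authors' FPKM placed *Zbp1* first (69.1), before *Ddx58* (66.8) and *Dhx58* (56.6), and kept *Ikbke* (7.61) above *Tlr3* (6.85). The longest transcript placed *Ddx58* before *Dhx58* and left *Ikbke* last.

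**Figure D2:**
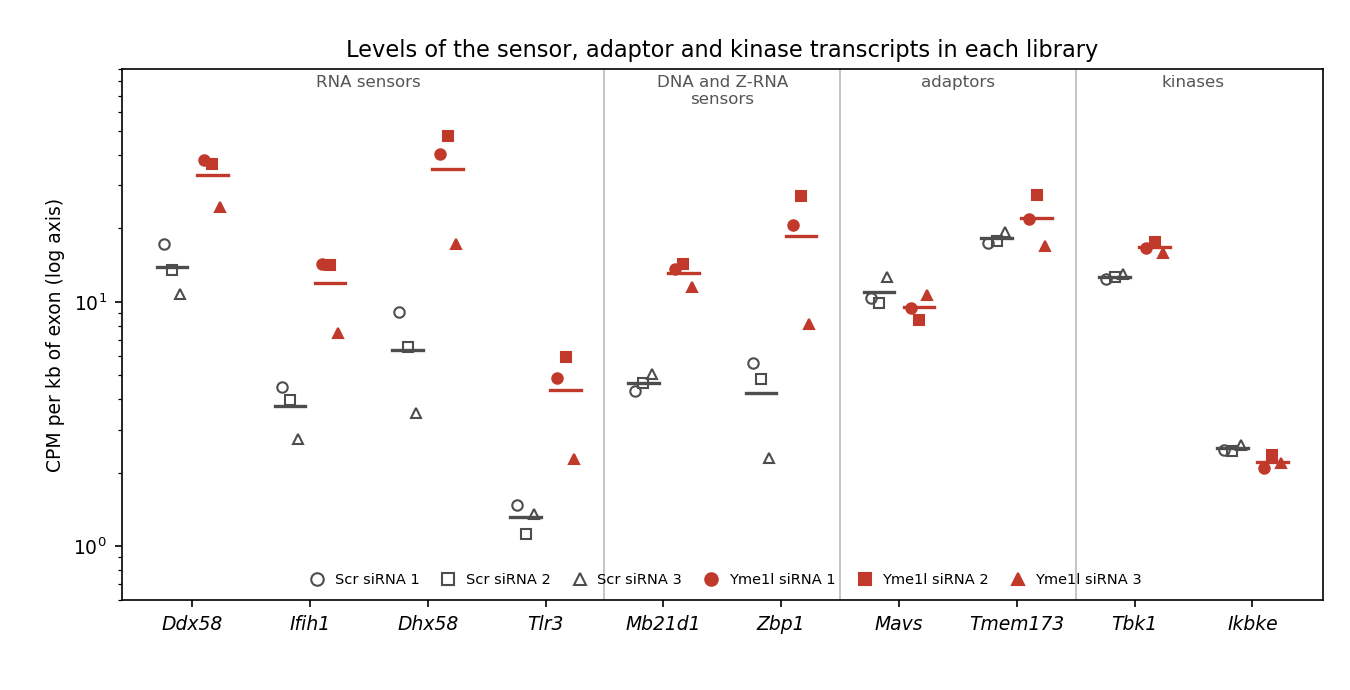
Level of each member in each library (y axis, CPM per kb of exon, log axis), with open grey symbols for Scr siRNA and filled red symbols for Yme1l siRNA cultures, 1 symbol shape per replicate number and a bar at the mean of 3. The groups are apart at all 6 sensors and at both kinases and overlap at both adaptors, and the red triangle of replicate 3 is the lowest knockdown culture at 8 members.

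**Figure D3:**
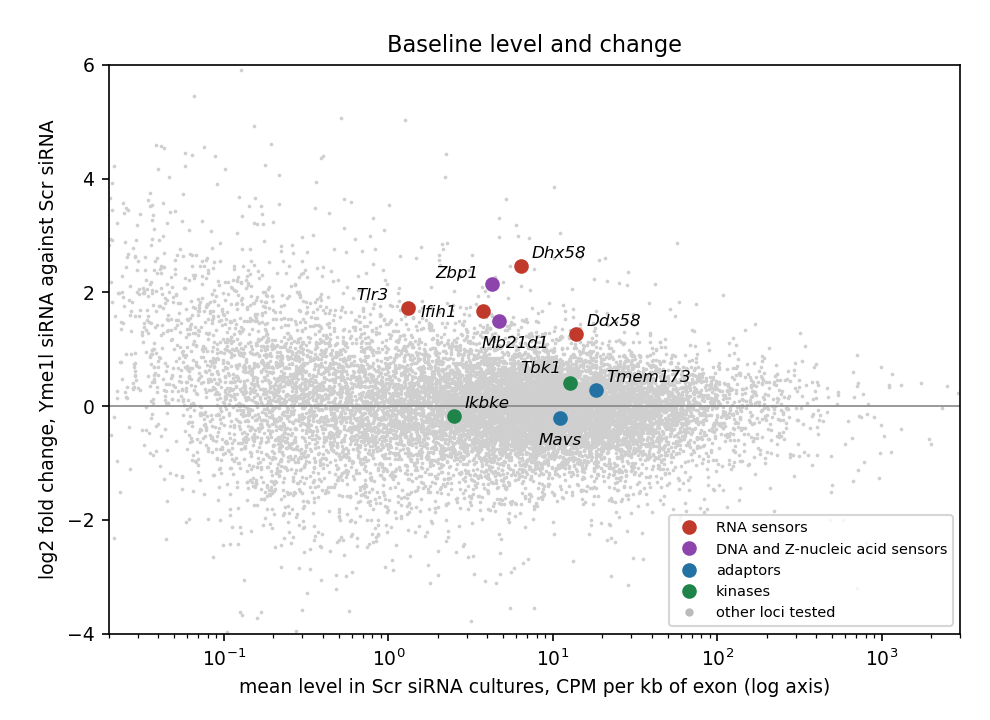
Mean level in the Scr siRNA cultures (x axis, CPM per kb of exon, log axis) against the log2 fold change (y axis, Yme1l siRNA against Scr siRNA) for the members, coloured by role, over the loci tested that have a length (grey, 13947 of 14044 lie inside the axes). The sensors span baseline levels from 1.32 to 13.9 CPM per kb with log2 fold changes from 1.26 to 2.46, and *Ddx58*, *Tbk1*, *Mavs* and *Tmem173* share a baseline range but not a change.

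The RIG-I-like receptor transcripts were also described as a pool. Summed over the 3 receptors, the level was 30.9, 24.0 and 17.1 CPM per kb in control cultures and 92.7, 98.9 and 49.2 CPM per kb in knockdown cultures. RIG-I made up 55.9, 56.3 and 63.3% of this sum in control and 41.1, 37.3 and 49.9% in knockdown cultures. LGP2 went from 29.5, 27.2 and 20.6% to 43.5, 48.3 and 34.9%, and MDA5 kept to 14.4 to 16.5% in all 6 libraries. Thus the share of RIG-I was lower and that of LGP2 higher in every knockdown culture than in every control culture. RIG-I exceeded LGP2 in all 3 control libraries and in knockdown replicate 3, and LGP2 exceeded RIG-I in knockdown replicates 1 and 2. This crossing depended on the length used: per kb of the longest transcript, the knockdown means were 60.4 CPM for *Ddx58* and 47.6 CPM for *Dhx58*, and the authors' FPKM were 66.8 and 56.6.

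**Figure D4:**
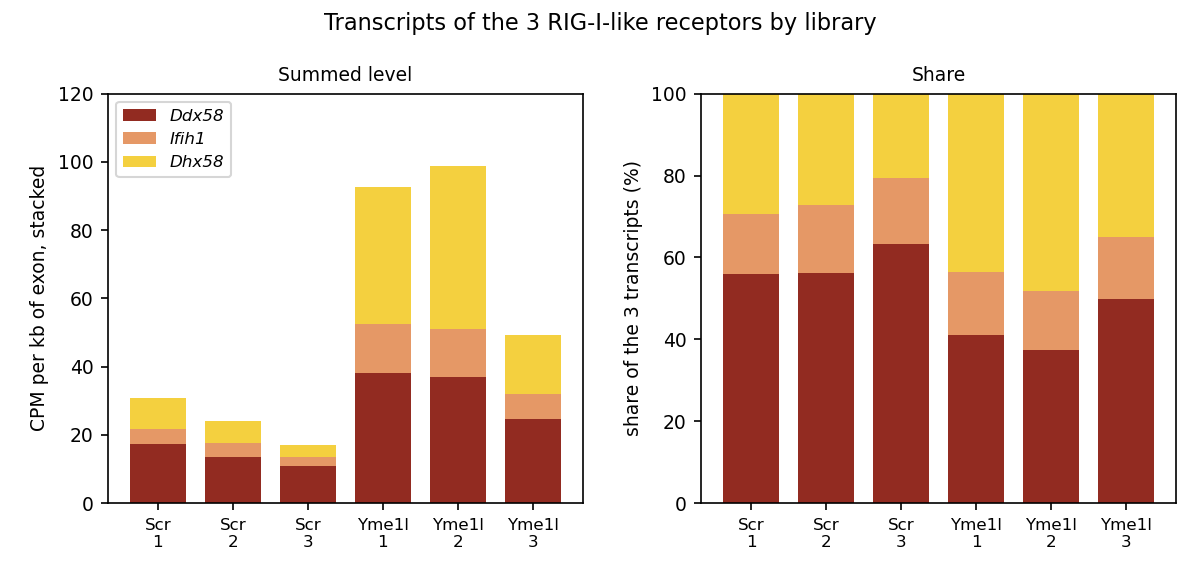
Stacked levels (left, CPM per kb of exon) and shares (right, %) of the *Ddx58*, *Ifih1* and *Dhx58* transcripts in each of the 6 libraries. The stack is taller in every Yme1l siRNA library (49.2 to 98.9 CPM per kb) than in every Scr siRNA library (17.1 to 30.9), and the *Dhx58* share is larger (34.9 to 48.3% against 20.6 to 29.5%).

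Ratios within each library compared members that act together, with 8 ratios tested by a two-sided exact permutation test over the cultures. With 3 cultures against 3 the smallest p this test can give is 0.1, so no ratio could pass 0.05. *Dhx58* to *Ddx58*, per kb, went from a geometric mean of 0.436 to 0.986 (difference in log2 ratio 1.18), and *Ifih1* to *Ddx58* went from 0.269 to 0.353 (0.39). *Dhx58* to *Ifih1* went from 1.62 to 2.79 (0.78). Against their adaptor, *Ddx58* to *Mavs* went from 1.25 to 3.44 and *Ifih1* to *Mavs* from 0.335 to 1.21. On the DNA side *Mb21d1* to *Tmem173* was 0.248, 0.262 and 0.260 in control and 0.621, 0.518 and 0.678 in knockdown cultures. Between the kinases *Ikbke* to *Tbk1* was 0.200, 0.194 and 0.200 in control and 0.125, 0.134 and 0.138 in knockdown cultures. These 7 ratios did not overlap between groups (exact permutation test, p = 0.1, adjusted p = 0.114 over the 8 ratios). The ratio of *Tlr3* to *Ifih1*, the pair of receptors for long double-stranded RNA, overlapped, with 0.358 against 0.351 (exact permutation test, p = 1.0), and its direction turned when either replicate 3 was left out.

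The members also differed in how far cultures of 1 group lay apart. Over the 11544 loci whose mean log2 CPM was 1 or more, the highest and the lowest culture of a group differed by a median of 1.13-fold with Scr siRNA and 1.16-fold with Yme1l siRNA, and the 95th percentiles were 1.54-fold and 1.68-fold. *Dhx58* (2.59-fold and 2.78-fold), *Zbp1* (2.45-fold and 3.34-fold) and *Ifih1* (1.64-fold and 1.92-fold) exceeded the 95th percentile in both groups. *Ddx58* exceeded it with Scr siRNA (1.6-fold) and *Tlr3* with Yme1l siRNA (2.62-fold). The others stayed within it in both groups, *Tmem173* with 1.12-fold and 1.62-fold, and *Mb21d1*, *Mavs*, *Tbk1* and *Ikbke* with at most 1.29-fold.

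The cultures at the ends of this spread were often the same. Among control cultures, replicate 3 was the lowest at *Ddx58*, *Ifih1*, *Dhx58* and *Zbp1* and the highest at *Mb21d1*, *Mavs*, *Tmem173*, *Tbk1* and *Ikbke*. Among knockdown cultures replicate 3 was the lowest at 8 members, and replicate 2 the highest at 7. The mean log2 CPM of 7 tested interferon output genes (*Ifnb1*, *Cxcl10*, *Ccl5*, *Isg15*, *Ifit1*, *Ifit3* and *Rsad2*) was likewise lowest in replicate 3 of both groups, with 4.32, 3.93 and 3.02 in Scr siRNA and 6.65, 6.98 and 5.50 in Yme1l siRNA cultures. *Ifnb1*, the gene of interferon β, had 3, 1 and 0 counts in control and 37, 60 and 11 counts in knockdown cultures (adjusted p = 0.00233 from edgeR). It passed the filter on low counts only through the knockdown cultures. Residual *Yme1l1* was lowest in knockdown replicate 2 and highest in replicate 3. Transcripts of mitochondrial DNA made up 4.11, 3.92 and 2.2% of the counts in control cultures and 2.00, 2.14 and 2.10% in knockdown cultures, so that control replicate 3 stood with the knockdown cultures in this measure. The part of these differences in the spread of the sensors was not tested.

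Loci with the nearest pattern to each called member were sought by the root mean square difference of log2 CPM over the 6 libraries, relative to the Scr siRNA mean, among 11192 loci. *Dhx58* lay nearest to *Ifit3b* (0.076), *Phf11d* (0.084) and *Sp100* (0.119), and *Ifih1* to *Parp12* (0.054), *Irgm1* (0.094) and *Gm26651* (0.114). For *Ddx58* they were *Trim21* (0.095), *Csf1* (0.105) and *Ifi211* (0.135). *Zbp1* had *Trim30d* (0.074), *Ifit1* (0.179) and *Ccl5* (0.239), and *Tlr3* had *Nlrc5* (0.141), *Parp14* (0.205) and *Tnfaip3* (0.207). The even rise of *Mb21d1* was nearest to those of *Gm26917* (0.033), *BC030867* (0.048) and *Ifrd1* (0.058), and *Tbk1* to *Zfp111* (0.027), *Zfp644* (0.027) and *Mllt1* (0.028). No member was among the 3 loci nearest to another member.

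The genes that regulate the members or act beside them moved in both directions. Over 8 lists with 102 tested genes, 34 rose (33.3%) and 30 fell, with a median log2 fold change of 0.04, where 28.4% and 29.6% of all loci rose and fell. Of these genes, *Trim14* and *Tlr9* passed the filter on low counts only through the knockdown cultures, and *Tlr6* only through the control cultures. Of the regulators of the RIG-I-like receptors, 8 of 13 were higher and 4 lower, with a median of 0.45. *Trim65*, counted among those that were higher, shares its locus with *Trim47*, so that rise cannot be assigned to either gene. *Ddx60*, a helicase described as a cofactor of RIG-I, rose from 0.659 ± 0.324 to 15.5 ± 7.93 CPM (log2 fold change 4.55, SE 0.52, adjusted p = 0.000152 from edgeR). *Trim25*, a ubiquitin ligase that activates RIG-I, rose by 1.08 on the log2 scale, from 88.3 ± 16.8 to 186 ± 28.2 CPM (adjusted p = 0.000495). *Rnf135*, which also ubiquitinates RIG-I, fell by 0.59 on the log2 scale (adjusted p = 0.000957). Those that fell further were *Rnf122* (-1.63, adjusted p = 1.2e-05) and *Rnf125* (-1.32, adjusted p = 0.00249), ligases that promote degradation of RIG-I, and *Prkra* (-0.97, adjusted p = 3.43e-05), whose product binds double-stranded RNA.

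Among 12 tested partners of MAVS, 5 rose (41.7%) and 4 fell, where 28.4% and 29.6% of all loci rose and fell. Their median log2 fold change was -0.15, and none rose by at least 2-fold, against 8.18% of all loci. *Pcbp2*, which brings a ligase to MAVS for its degradation, rose from 614 ± 59.4 to 1150 ± 7.18 CPM (log2 fold change 0.90, SE 0.09, adjusted p = 6.52e-05 from edgeR). The ligase itself, *Itch*, fell by 0.39 on the log2 scale (adjusted p = 0.00594). *Ripk1* (-0.49), *Tradd* (-0.58) and *Tkfc* (-0.62) fell, with adjusted p-values of 0.000408 to 0.000641 from edgeR. *Traf3*, which links MAVS to the kinases, had 108 ± 6.17 and 99.8 ± 2.01 CPM and did not pass the test (-0.11, adjusted p = 0.19).

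Of 15 tested genes that act on cGAS or cGAMP, 7 rose and 3 fell (66.7% called, against 58.0% of all loci), with a median of 0.15. *Trim14*, among those that rose, had 6, 3 and 3 counts in control and 62, 43 and 18 in knockdown cultures. It passed the filter on low counts only through the latter and could only come out as higher. *Lrrc8a*, which did not pass the test, was counted at a locus that also holds other genes. *Slc19a1*, a folate carrier that also imports cyclic dinucleotides, rose by 0.69 on the log2 scale, from 43.6 ± 1.78 to 70.3 ± 5.70 CPM (adjusted p = 0.000137 from edgeR). *Enpp1*, the hydrolase of extracellular cGAMP, fell by 1.43, from 47.4 ± 17.7 to 17.6 ± 4.51 CPM (adjusted p = 0.00318). *Banf1*, whose product competes with cGAS for DNA, rose by 0.56 (adjusted p = 0.000138), and *Ttll4*, which encodes a glutamylase, by 0.43 (adjusted p = 0.000921).

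Of the genes of STING traffic and turnover, 7 of 17 were lower and 4 higher (64.7% called, against 58.0% of all loci), with a median of -0.13. *Tmem203* fell by 1.51 on the log2 scale (adjusted p = 9.54e-05 from edgeR), and *Ssr2*, a subunit of the translocon-associated protein complex, by 1.11, from 225 ± 18.8 to 104 ± 6.92 CPM (adjusted p = 2.61e-05). *Rnf5*, a ligase that targets STING for degradation, fell by 0.81 (adjusted p = 4.52e-05) and the kinase *Ulk1* by 0.77 (adjusted p = 2.69e-05). *Stim1*, which retains STING on the endoplasmic reticulum, was among those that rose (0.86, adjusted p = 0.000609).

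Around the kinases, 6 of 14 scaffolds and targets fell and 2 rose, with a median of -0.12. The share called, 57.1%, was close to the 58.0% of all loci. *Irf7*, an interferon-inducible target, rose from 17.7 ± 9.97 to 140 ± 63.8 CPM (log2 fold change 2.98, SE 0.50, adjusted p = 0.00114 from edgeR), whereas the constitutive target *Irf3* had 37.9 ± 3.46 and 33 ± 1.16 CPM and did not pass the test (-0.20, adjusted p = 0.0635). *Sike1*, a suppressor of IKKε, fell by 0.74 (adjusted p = 6.25e-05), and *Tax1bp1* by 0.58 (adjusted p = 0.000498). *Traip* rose by 0.91 (adjusted p = 4.39e-05).

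Beside TLR3 and ZBP1, 2 of 9 partners rose and 1 fell (33.3% called, against 58.0% of all loci). *Ticam1*, the adaptor of TLR3 known as TRIF, fell by 0.65 on the log2 scale, from 66.1 ± 3.69 to 42.1 ± 1.59 CPM (adjusted p = 9.93e-05 from edgeR). *Mlkl*, the executor of necroptosis, rose by 0.73, from 39.8 ± 0.187 to 66.2 ± 8.68 CPM (adjusted p = 0.000308), and the chaperone gene *Cnpy3* rose by 0.31 (adjusted p = 0.0195). *Ripk3*, the kinase between ZBP1 and MLKL, had 13.1 ± 1.22 and 12.9 ± 0.577 CPM and did not pass the test (adjusted p = 0.883).

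Of the other Toll-like receptors, 5 of 8 were tested. *Tlr2*, a receptor for bacterial lipopeptides, rose by 1.12 on the log2 scale (adjusted p = 0.000148 from edgeR) and its partner *Tlr6* fell by 1.81, from 0.680 ± 0.0921 to 0.192 ± 0.0135 CPM (adjusted p = 0.000928). *Tlr9*, the endosomal DNA receptor, rose from 0.256 ± 0.0234 to 1.51 ± 0.399 CPM (log2 fold change 2.55, adjusted p = 0.000179), and *Tlr7* and *Tlr8*, receptors for single-stranded RNA, were below the filter on low counts. *Tlr9* passed that filter only through its knockdown cultures and could only come out as higher. *Tlr6* passed it only through its control cultures and could only come out as lower. Among 17 tested genes of other proteins that have been described as nucleic acid sensors, 4 rose, 3 fell and 10 did not pass the test, with a median of 0.13. The share called was 41.2%, against 58.0% of all loci. *Eif2ak2*, which encodes the interferon-inducible kinase PKR, rose by 0.94 (adjusted p = 0.00094) and *Ddx21* by 0.76 (adjusted p = 0.000312), while *Xrcc5*, which encodes a Ku subunit, fell by 0.58 (adjusted p = 0.000663).

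All 7 tested genes of the interferon output rose, against 28.4% of all loci. With *Ifnb1* included, their median log2 fold change was 2.56 and their range 1.83 to 4.53. The top value is that of *Ifnb1*, which passed the filter on low counts only through its knockdown cultures. A gene admitted in this way could only come out as higher, and the next value was 3.30, of *Rsad2*. *Ifna4*, with 0 counts in every control culture and 4, 6 and 1 in knockdown cultures, was below the filter. *Cxcl10* rose from 25 ± 5.66 to 205 ± 84.8 CPM and *Rsad2* from 20.4 ± 6.16 to 202 ± 101 CPM, while *Ccl5* went from 40.1 ± 16.1 to 177 ± 69.4 CPM (adjusted p between 9.46e-05 and 0.00101 from edgeR). *Dhx58*, the member with the largest change, had a log2 fold change of 2.46, just under the median of these genes with *Ifnb1* included.

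**Figure D5:**
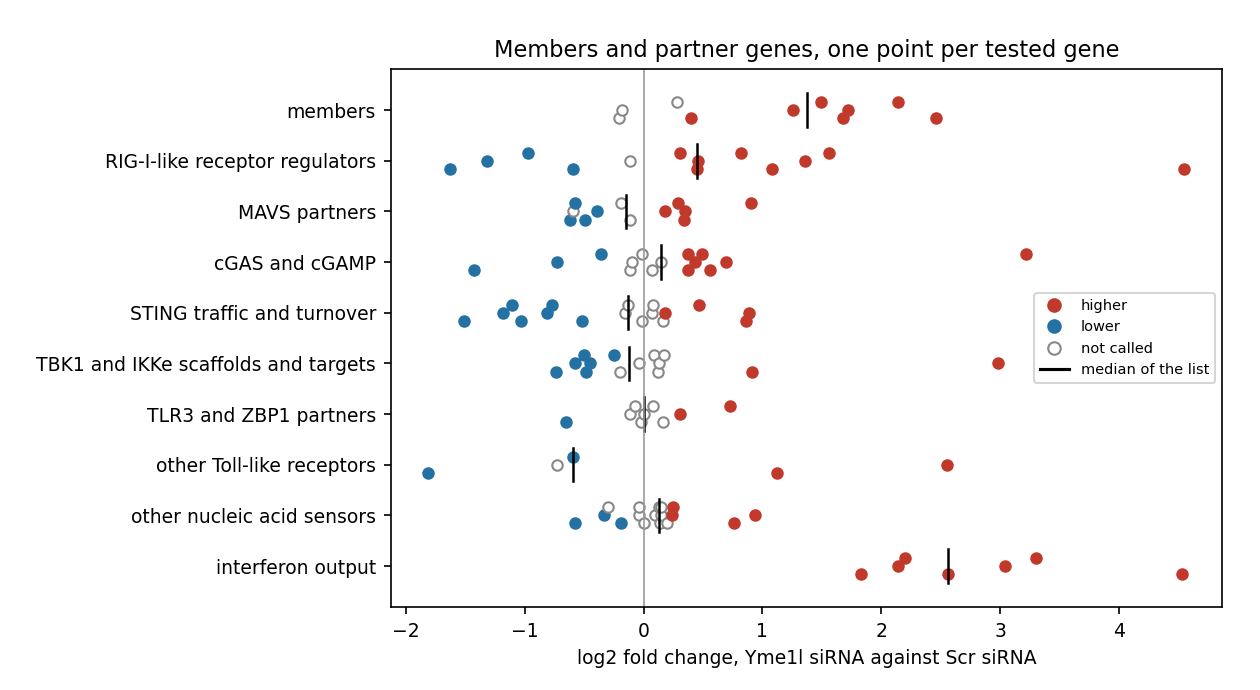
Log2 fold change (x axis, Yme1l siRNA against Scr siRNA) of each tested gene in the member list, the 8 partner lists and the interferon output list, with red points for genes that rose, blue for those that fell, open points for those that did not pass an adjusted p of 0.05, and a black bar at the median of each list. The member median is 1.37 and that of the interferon output 2.56 with *Ifnb1* included, and the medians of the 8 partner lists lie between -0.59 and 0.45.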

How the data were processed

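RNA-Seq was performed on 6 cultures, 3 per group, grouped by the siRNA named in the sample labels. The raw counts per locus were deposited by the authors without normalization. Their second table holds FPKM values that the authors deposited per group with the cultures pooled, together with the fold changes, p-values and q-values of their own comparison, which were not used. The submitters' processing notes name HISAT2 2.0.4, StringTie 1.3.3, Cufflinks, Cuffdiff 2.2.1 and GRCm38. The program that counted reads and its use of strand are not given in the sources used here.

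Loci were filtered with filterByExpr (at least 10 counts, 15 in total), scaled by TMM and tested with edgeR 4.0.16 in R 4.3.3 (quasi-likelihood test, Benjamini-Hochberg adjustment over 14499 loci, threshold 0.05). A locus could pass the filter through a single group, as *Ifnb1*, *Tlr9* and *Trim14* did through the knockdown cultures and *Tlr6* through the control cultures. The biological coefficient of variation was 0.131. Depth was 37260605 to 45205207 counts, and the p-values reflect only counting error and how far cultures of a group lay apart. No library repeated another, as all pairs within a group exceeded counting noise (chi-square per degree of freedom 9.7 to 69.9). DESeq2 1.42.0, limma-voom (limma 3.58.1), other scalings and filters, a replicate block and the omission of each library in turn were alternatives, and a fit without loci of mitochondrial DNA was added after the data were seen. Steps were run on simulated data in which 200 of 14499 loci were changed 2-fold. There edgeR recovered 77% of the changed loci, DESeq2 81.5% and limma-voom 78%. Of the loci called, 7.23%, 17.7% and 6.02% were false. Far fewer loci changed in the simulation than were called here, so it does not give the error rate of these data. Exon lengths and coordinates came from GENCODE M21 on GRCm38 and promoter windows from RefSeq (GRCm38.p6). Windows begin from RefSeq's start sites, which can differ from the outer ends of the GENCODE genes.

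The members, the gene lists and the tests were chosen with earlier results of these data known. Genes named are the members, *Yme1l1*, *Ifnb1*, in each list the 3 tested genes with the smallest adjusted p and the lowest called fold change, and for each called member its 3 nearest loci. *Trim25*, *Rnf135*, *Rnf125*, *Trim65* with *Trim47*, *Itch*, *Traf3*, *Trim14*, *Lrrc8a*, *Stim1*, *Irf3*, *Irf7*, *Ripk3*, *Tlr7*, *Tlr8* and the interferon output genes other than *Cxcl10*, *Rsad2* and *Ccl5* were added after their values were seen. *Zdhhc7* had no row. Tables and figures were made with pandas 2.3.3, numpy 2.4.6, scipy 1.17.1 and matplotlib 3.10.9 in Python 3.11.15.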

Additional observations from a re-analysis of the deposited data

How the results depend on the processing

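All 7 members that rose did so under each of the 16 alternatives tried. The number of members called lower, 0 in the analysis reported, was 1 with the replicate number as a block, where *Mavs* passed the threshold (log2 fold change -0.21, adjusted p = 0.0324 from edgeR), and ranged from 0 to 1 when 1 library was left out. The replicate numbers gave no firm pairing: deviations of same-numbered cultures correlated at 0.04, 0.12 and 0.19, and 5 of 6 libraries correlated best with their own number. Among the members the block changed no other call, and of the partner genes it called 35 higher and 31 lower, against 34 and 30. *Cnpy3* lost its call at a threshold of 0.01 and without Scr siRNA replicate 3 (adjusted p = 0.0568). The log2 ratio of *Tlr3* to *Ifih1* changed by -0.03, and between -0.20 and 0.21 when a library was left out (0.21 without Scr siRNA replicate 3, 0.07 without Yme1l siRNA replicate 3). In the baseline order, 5 members kept their position with the longest transcript as length and 3 with the authors' FPKM. Scaling moved the median log2 fold change of all loci by less than 0.1.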
